A study of Canis lupus familiaris with 25 samples.

Results

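The genes described here are the cytochrome P450 genes of the dog, taken from a table of QuantSeq 3′ counts as the rows whose name is CYP followed by a family number, subfamily letters and a gene number. Of 24532 rows, 29 matched this pattern, and 27 remained after CYP51A1 and CYP27B1 were set aside by the rule, which also names CYP24A1. The samples were archival formalin-fixed, paraffin-embedded (FFPE) tumors of dogs of several breeds. They comprised 10 hepatoid gland adenomas (HGA), a benign tumor of the perianal glands, 11 primary tumors of the malignant apocrine gland anal sac adenocarcinoma (AGASAC), and 4 AGASAC metastases in the sublumbal lymph node of the dogs with primary tumors 1 to 4. Metastases carry the number of the dog. No treatment and no engineered allele is given for any group. The HGA dogs were 8 to 14 years old, with 1 neutered male, 3 neutered females, and 4 males and 2 females not given as neutered. The dogs with primary AGASAC were 8 to 12.5 years old, with 6 neutered males, 3 neutered females and 2 females not given as neutered, and each of the males was neutered. The dogs with metastases were 8 to 10 years old, and they were 2 neutered males, 1 neutered female and 1 female not given as neutered. Males not given as neutered occurred among the HGA alone, so for these 4 of the 10 HGA the status cannot be told apart from tumor type. QuantSeq 3′ reads each transcript near its 3′ end, so that a count stands for a transcript and not for its length.

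Cytochrome P450 enzymes are heme proteins that insert an oxygen atom into their substrate, with electrons passed on by a reductase partner. The CYP1, CYP2 and CYP3 families are best known for the clearance of drugs and other foreign compounds in the liver, while the CYP4 family hydroxylates fatty acids, CYP26 enzymes break down retinoic acid, and the CYP7, CYP27, CYP39 and CYP46 families act on sterols on the way to bile acids and oxysterols. CYP19A1 and CYP21A2 make steroid hormones. The hepatoid gland is a modified sebaceous gland that responds to androgens and is named for its resemblance to liver cells, whereas the anal sac carcinoma arises from apocrine glands.

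The labelled tumor types were checked against summed levels of marker genes, as CPM, edgeR's counts relative to a library size scaled by TMM (trimmed mean of M values). The 10 genes of squamous and sebaceous epithelium summed to 4865 to 15224 CPM in HGA, 78.3 to 223 CPM in primary AGASAC and 61.0 to 130 CPM in the metastases. PLIN5, a gene of this list, went the other way, with no count in HGA and some counts in primary AGASAC and the metastases. The 8 genes of luminal gland epithelium summed to 411 to 740 CPM in HGA, 5838 to 11366 CPM in primary AGASAC and 5277 to 11513 CPM in the metastases. Of 11 hepatocyte genes, 9 were found, and they summed to 8.17 to 42.3 CPM in HGA and 11.7 to 184 CPM in primary AGASAC, so that the hepatocyte program was low in both. The squamous and luminal lists did not overlap between HGA and AGASAC, and their part in the members' differences was not tested. In such bulk samples fewer cells of a type cannot be told apart from less RNA per cell. The total count of a sample lay between 1562347 and 6389555 (median 2506085) in HGA, between 2581453 and 4218340 (median 2950459) in primary AGASAC and between 2857541 and 3289546 in the metastases. A count of 0 allows up to 3 counts, or 0.54 to 1.84 CPM depending on the sample, and this limit covers counting error alone. HGA 10 stood apart among the HGA. Its members summed to 58.1 CPM, against 371 CPM or more in the other 9, and it was the single HGA in the sequencing file naming series that held 7 of the primary tumors.

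Between 9 and 16 of the 27 members had a count in any HGA, between 15 and 21 in any primary AGASAC and between 18 and 22 in any metastasis. CYP1B1 made up most of the P450 counts in many of the tumors, with a median of 79.4% of the summed level in HGA and 70.6% in primary AGASAC. The median was 34.1% in the metastases, where 5 neighbouring genes of the CYP4 family took a median of 62.0%. The same 5 genes took a median of 22.1% in primary AGASAC and 0.084% in HGA. The shares in the metastases and the primary tumors overlapped widely. CYP1B1 spanned 1.8% to 94.8% in the metastases and 1.7% to 95.5% in primary AGASAC. The 5 genes spanned 3.5% to 93.2% in the metastases and 0.36% to 94.6% in primary AGASAC. Among the 27 members, the clearance genes of the CYP2 and CYP3 families that are typical of liver were near the detection limit in all 3 groups.

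**Figure D1:**
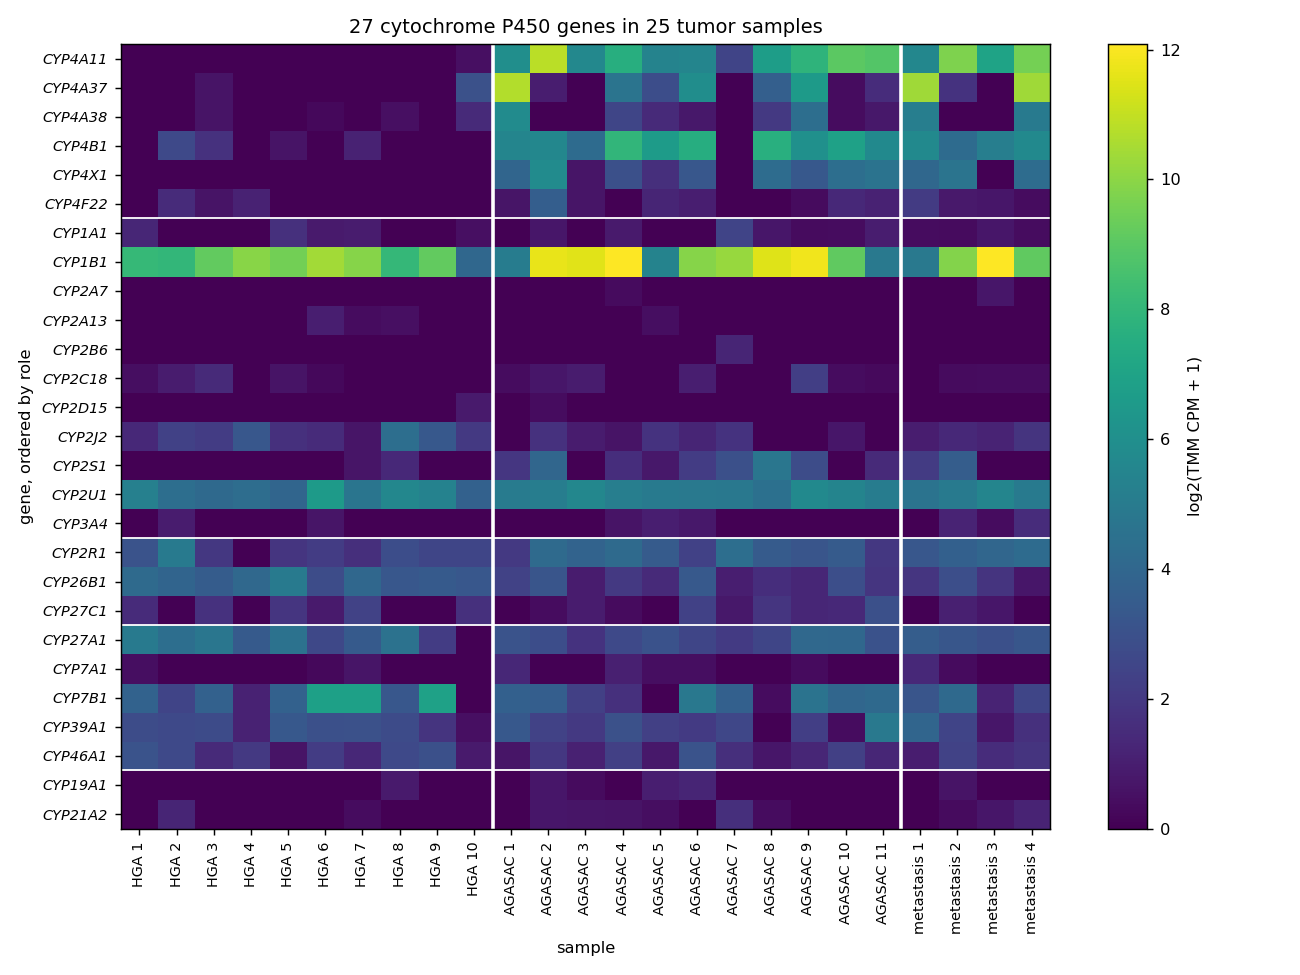
Level of each of the 27 cytochrome P450 genes (rows, grouped by role between the horizontal lines) in each of the 25 tumor samples (columns, with HGA, primary AGASAC and metastases between the vertical lines), as log2(TMM CPM + 1). CYP1B1 is bright in most columns, CYP4A11, CYP4B1 and CYP4X1 are dark in the HGA columns, and CYP7B1 is bright in HGA 6, 7 and 9.

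The question of which P450 genes differ between the tumor types was put to edgeR's quasi-likelihood test. A gene was called where its p, adjusted by Benjamini-Yekutieli, did not exceed 0.05 and its log2FC was 1 or more in size, and a positive log2FC means a higher level in HGA. The p-values measure the spread between tumors of different dogs. Of 27 members, 9 passed the filter on low counts in this comparison and 3 were called, beside 25.1% of the 12070 genes tested. CYP4A11 and CYP4B1 fell in HGA, beside 12.5% of the tested genes called lower, and CYP26B1 rose, beside 12.6% called higher. An unadjusted p under 0.05 was found for 6 of the 9 members, beside 53.7% of all tested genes. The median log2FC was −0.27 over the 9 tested members and −0.03 over all tested genes. Scaling by library size alone moved the median of all genes to −0.33 and the share of calls that were higher in HGA from 50.2% to 32.8%, and the same 3 members were called with it. The remaining 18 members did not reach the minimum count in enough samples. CYP4A37, with 5534 counts in AGASAC 1, is one of them.

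Both members called lower, CYP4A11 and CYP4B1, belonged to a row of 5 genes of the CYP4 family, CYP4X1, CYP4A37, CYP4A38, CYP4A11 and CYP4B1. They are direct neighbours in the RefSeq annotation of the assembly UU_Cfam_GSD_1.0, in this order and with 0 other protein-coding genes between them. CYP4A enzymes hydroxylate the terminal carbon of medium- and long-chain fatty acids, CYP4B1 acts on short fatty acids and on some foreign compounds, and the role of CYP4X1 is less well known. Together the 5 genes reached 0 to 9.03 CPM in HGA (median 0.48), 4.54 to 1921 CPM in primary AGASAC (median 422) and 161 to 2160 CPM in the metastases (median 1183). HGA 10 had the 9.03 CPM, and AGASAC 7 had the 4.54 CPM.

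CYP4A11 had 1 count over all 10 HGA, which lay in HGA 10. Its level in primary AGASAC ranged from 4.54 CPM in AGASAC 7 to 1815 CPM in AGASAC 2, with a median of 104 CPM. It was 47.4, 847, 126 and 756 CPM in metastases 1 to 4. The HGA did not overlap with the primary tumors, which held for 1 of the 9 tested members beside 4.76% of all tested genes that were lower in HGA without overlap. The log2FC was −12.00 (SE 1.24, adjusted p = 3.37e-07, edgeR), a fitted value that depends on the prior count. From the summed counts, the level in primary AGASAC was 9121 times that in HGA, with a 95% counting interval of 1637 to 360304. AGASAC 2 held 5555 of the 11494 counts, and without it, a setting chosen after seeing the data, the ratio was 5156 (925 to 203672). Without HGA 10, which held the 1 count of the HGA, CYP4A11 was at least 2790-fold higher in primary AGASAC, with 3 counts over the group as the limit. The next level after AGASAC 2 was 518 CPM in AGASAC 10, so the primary tumors differed widely among themselves.

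CYP4B1 was at 0 in 6 of 10 HGA, and the other 4 had 0.54 to 5.42 CPM, the highest in HGA 2. In primary AGASAC it ranged from 17.8 to 250 CPM in 10 tumors (median over all 11, 66.2 CPM) and was at 0 in AGASAC 7, which alone made the groups overlap. The metastases had 51.9, 17.5, 34.7 and 52.1 CPM. The mean was 0.95 ± 1.75 CPM in HGA (SD, n = 10) and 98.2 ± 81.2 CPM in primary AGASAC (SD, n = 11), and the log2FC was −6.80 (SE 0.91, adjusted p = 1.50e-05, edgeR). CYP4B1 was thus 112-fold lower in HGA by the fit.

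CYP4X1 had 0 counts in all 10 HGA and 519 counts over the primary tumors. It was at least 137-fold higher in primary AGASAC, with 3 counts over the group as the limit for HGA. It reached 56.5 CPM in AGASAC 2, with a median of 8.89 CPM, and was at 0 in AGASAC 7 and at 0.59 CPM in AGASAC 3. The filter removed it from the comparison of primary tumors, and without the filter its adjusted p was 0.000425 in edgeR.

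CYP4A37 was spread widely among the AGASAC. It reached 1668 CPM in AGASAC 1 and 94.9 CPM in AGASAC 9, 60.6 CPM in AGASAC 6 and 24.5 CPM in AGASAC 4. The other 7 primary tumors had 0 to 11.7 CPM. The metastases of dogs 1 and 4 had 1326 and 1304 CPM, and those of dogs 2 and 3 had 2.39 and 0 CPM. In HGA, it had 6.88 CPM in HGA 10, 0.57 CPM in HGA 3 and no count in the other 8. CYP4A38 lay below CYP4A37 in the tumors with high CYP4A37, although its own highest values were found there. It had 56.4 CPM in AGASAC 1, 19.8 CPM in AGASAC 9, 34.7 CPM in metastasis 1 and 29.1 CPM in metastasis 4. In AGASAC 6 it had 0.69 CPM, from 2 counts. In HGA it did not exceed 1.72 CPM, the value of HGA 10. Neither gene passed the filter between primary tumors. Without it, CYP4A37 was called with a log2FC of −7.91 (SE 1.66, adjusted p = 0.00587, edgeR) and CYP4A38 with −4.68 (SE 1.21, adjusted p = 0.0393, edgeR), and DESeq2 called CYP4A37 (adjusted p = 0.000671) but not CYP4A38 (adjusted p = 0.203).

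The genes of the CYP4A subfamily are close copies of each other, and reads that mapped to several places were split evenly over them, so the assignment of counts among CYP4A11, CYP4A37 and CYP4A38 is uncertain. The intervals of the following shares cover counting error alone and take reads as independent, and each share is that of a single library, so no difference between tumors was tested. CYP4A38 made up 3.27% of the counts of the pair CYP4A37 and CYP4A38 in AGASAC 1 (exact 95% interval 2.82% to 3.76%) and 2.55% in metastasis 1 (2.09% to 3.07%). It made up 17.25% in AGASAC 9 (13.7% to 21.3%) and 1.12% in AGASAC 6 (0.14% to 4.00%, 178 counts). In dog 4 the share was 16.2% in the primary tumor (9.72% to 24.7%, 105 counts) and 2.18% in the metastasis (1.76% to 2.67%, 4173 counts). CYP4A11 and CYP4A37 showed no common order across the tumors. AGASAC 1 had 61.5 CPM of CYP4A11 and the highest CYP4A37, and AGASAC 2 had the highest CYP4A11 and 0.98 CPM of CYP4A37, whereas metastasis 4 was high in both (756 and 1304 CPM) and AGASAC 7 low in both (4.54 and 0 CPM).

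**Figure D2:**
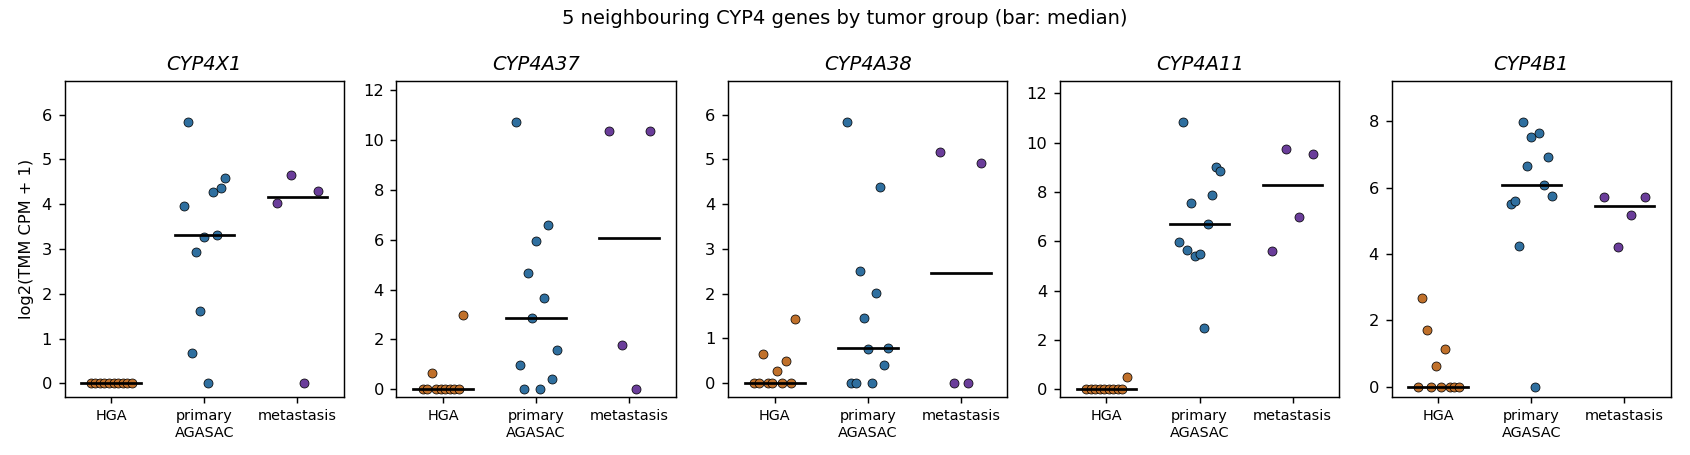
Level of 5 neighbouring CYP4 genes as log2(TMM CPM + 1), 1 point per sample, for HGA (n = 10), primary AGASAC (n = 11) and metastases (n = 4), with a bar at the median. The HGA lie at or below 6.88 CPM for each of the 5 genes, while CYP4A37 spans from 0 to 1668 CPM among the primary tumors.

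The last member of the family, CYP4F22, makes long hydroxylated fatty acids for the skin barrier. It was at or below 1.81 CPM in HGA and at 11.1 CPM in AGASAC 2, with no more than 1.63 CPM in the other primary tumors and 3.24 CPM in the metastases. It was not tested in any of the 3 comparisons.

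CYP1B1 hydroxylates estrogens and polycyclic aromatic compounds and is induced through the aryl hydrocarbon receptor (AHR). By counts of transcripts it was the highest member in each of the 10 HGA, with 15.5 CPM in HGA 10 and 259 to 1378 CPM in the other 9. In primary AGASAC the values fell into separate ranges, since AGASAC 1, 5 and 11 had 32.9, 41.3 and 28.7 CPM and the other 8 had 570 to 4222 CPM. The metastasis of dog 1 was low as well, with 28.9 CPM, and metastases 2, 3 and 4 had 919, 4348 and 558 CPM. In these 3 low primary tumors, AGASAC 1, 5 and 11, the 8 fibroblast and vessel genes summed to 1086, 3517 and 6942 CPM, against a median of 3600 CPM in primary AGASAC, and their part in the CYP1B1 level was not tested. The mean was 605 ± 420 CPM in HGA (SD, n = 10) and 1806 ± 1616 CPM in primary AGASAC (SD, n = 11), and CYP1B1 was not called (log2FC −1.56, SE 0.75, adjusted p = 0.887, edgeR). Within RNA extraction batch 8 the log2FC was 0.07, the highest of 14 alternative fits, of which the lowest was −2.58. AGASAC 1 and 5, both low in CYP1B1, are among the primary tumors of this batch.

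AHR itself had 28.1 ± 13.8 CPM in HGA and 18.7 ± 6.48 CPM in primary AGASAC and was not called (log2FC 0.61, SE 0.24, adjusted p = 0.420, edgeR). CYP1A1, another target of this receptor, stayed at or below 2.16 CPM in HGA and at or below 0.97 CPM in 10 of the 11 primary tumors, with 4.54 CPM (13 counts) in AGASAC 7. The levels of CYP1A1 were thus near the detection limit in tumors with high CYP1B1.

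The liver-type clearance genes among the 27 members were hardly detected. P450 genes of liver that have no row under such a name could not be judged. The highest count in any of the 25 samples was 2 for CYP2A7 and for CYP2D15, 4 for CYP2B6, 5 for CYP2A13, 6 for CYP3A4 and 13 for CYP2C18. NR1I2, the pregnane X receptor that induces CYP2B and CYP3A genes, had 0 counts in HGA, 6 in primary AGASAC and 17 in the metastases. No fold change is given for these genes.

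CYP2J2 and CYP2S1 oxidize arachidonic acid and related lipids, and CYP2U1 hydroxylates long-chain fatty acids. CYP2J2 had counts in all 10 HGA, from 0.61 CPM to 19.3 CPM in HGA 8 (median 3.22 CPM), and 0 to 2.45 CPM in primary AGASAC (median 0.65 CPM). The filter removed it. DESeq2 called it higher in HGA (log2FC 2.51, SE 0.71, adjusted p = 0.0216), as did a fit of all 25 samples (2.47, adjusted p = 0.0490, edgeR), whereas edgeR without the filter did not (2.42, adjusted p = 0.155). CYP2S1 went the other way, with counts in 2 of 10 HGA (0.61 and 1.64 CPM) and in 9 of 11 primary tumors, up to 25.5 CPM in AGASAC 8. It was also removed by the filter, and without it the log2FC was −4.45 (SE 1.04, adjusted p = 0.0162, edgeR). CYP2U1 was detected in each of the 25 samples. It ranged from 21.1 to 52.5 CPM in primary AGASAC, from 23.7 to 44.1 CPM in the metastases and from 12.5 to 93.9 CPM in HGA, with a log2FC of −0.06 (SE 0.29, adjusted p = 1, edgeR).

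Of the genes that act on vitamins, CYP26B1, which degrades retinoic acid, was called higher in HGA. It had 6.12 CPM (HGA 6) to 30.2 CPM (HGA 5) in HGA, with a median of 12.1 CPM. In primary AGASAC it had 0.89 to 9.30 CPM, with a median of 2.67 CPM. All 10 HGA were above that median, and AGASAC 2, 6 and 10, with 8.17, 9.30 and 6.53 CPM, reached into the range of the HGA. The log2FC was 1.88 (SE 0.41, adjusted p = 0.00510, edgeR), a 3.69-fold difference. CYP27C1, a retinoid desaturase, had at most 28 counts in any sample and was not tested. CYP2R1, a vitamin D 25-hydroxylase, had a mean of 6.37 ± 8.36 CPM in HGA (SD, n = 10) and 10.5 ± 5.88 CPM in primary AGASAC (SD, n = 11) and was not called (log2FC −0.68, SE 0.52, adjusted p = 1, edgeR). Its HGA value was raised by 29.4 CPM in HGA 2, as the next HGA had 7.60 CPM.

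Among the sterol hydroxylases none was called. CYP7B1, which hydroxylates oxysterols and some steroids at position 7, had 117, 115 and 118 CPM in HGA 6, 7 and 9, 0 CPM in HGA 10 and 1.23 to 12.8 CPM in the other 6 HGA. These 3 tumors came from males not given as neutered, and HGA 4, from the other such male, had 1.23 CPM. Primary AGASAC had 0 to 27.6 CPM, and the metastases had 1.29 to 16.4 CPM, so the 3 HGA were above every AGASAC sample. The mean of 40.1 ± 52.8 CPM in HGA against 11.3 ± 9.14 CPM in primary AGASAC gave a log2FC of 1.86 (SE 0.79, adjusted p = 0.565, edgeR). The medians were 12.5 and 12.1 CPM. CYP27A1, the mitochondrial sterol 27-hydroxylase, had 0 CPM in HGA 10 and 3.39 to 30.9 CPM in the other HGA, against 2.37 to 16.1 CPM in primary AGASAC (log2FC 1.05, SE 0.50, adjusted p = 0.833, edgeR).

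CYP39A1, an oxysterol 7-hydroxylase, had 0.43 to 9.17 CPM in HGA and 0 to 28.7 CPM in primary AGASAC, the highest in AGASAC 11, and a log2FC of −0.27 (SE 0.59, adjusted p = 1, edgeR). CYP46A1, the cholesterol 24-hydroxylase known from the brain, was low in each group, with medians of 3.27, 1.46 and 2.24 CPM in HGA, primary AGASAC and metastases. CYP7A1, the rate-limiting enzyme of bile acid synthesis in liver, had at most 5 counts in a sample. Of the steroidogenic members, CYP19A1 (aromatase) had at most 4 counts and CYP21A2 (the 21-hydroxylase of the adrenal cortex) at most 6 counts in any sample.

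**Figure D3:**
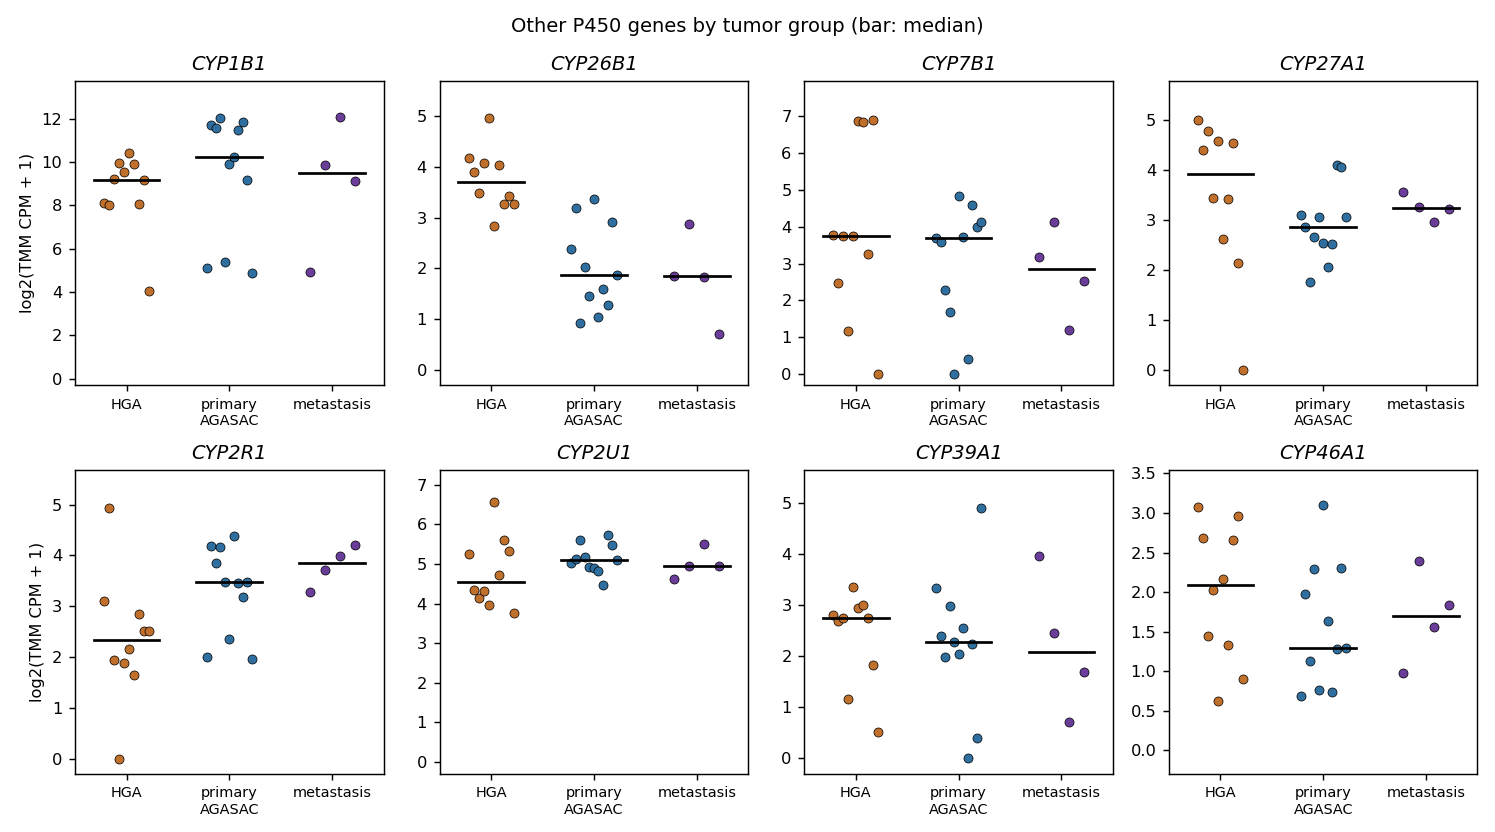
Level of 8 further P450 genes as log2(TMM CPM + 1), 1 point per sample, for HGA (n = 10), primary AGASAC (n = 11) and metastases (n = 4), with a bar at the median. CYP1B1 shows 3 low primary tumors apart from 8 high ones, CYP26B1 is higher in HGA, and 3 HGA have CYP7B1 near 117 CPM.

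The calls were followed within batches, as far as both tumor types were present. For CYP4A11 the log2FC was −11.02, −11.54 and −14.12 within RNA extraction batches 5, 6 and 8 and −13.89 within the naming series of most HGA, and CYP4B1 had −6.97 in batch 6, −6.81 in batch 8 and −5.16 in the naming series. It fell below the filter in batch 5, which holds AGASAC 7. CYP4A11 was not called within batches 5 and 8 (adjusted p = 0.290 and 0.481, edgeR), nor CYP4B1 within batch 8 (adjusted p = 0.0948, edgeR), and both were called within batch 6 and the naming series. CYP26B1 had 3.30, 1.76, 1.22 and 1.70 in the same order and lost its call in each of these subsets (adjusted p = 0.445, 0.999, 1 and 0.489, edgeR), which hold 2 to 9 HGA and 2 or 3 primary tumors. With the extraction batch as a covariate over all 21 tumors its log2FC was 2.12 (adjusted p = 0.00501, edgeR). Leaving out each of the 21 tumors in turn, HGA 10 included, gave the same 3 calls.

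Whether members differ after spread to the lymph node was asked in the 4 dogs with both samples. Of 12 members tested, 0 were called and 0 had an unadjusted p under 0.05, beside 0 called of 12629 genes and 1.15% of these genes with an unadjusted p under 0.05 in edgeR. The groups overlapped in each of the 12 members, beside 1.14% of genes without overlap. DESeq2 called 0 members and 5 genes. This fit had no term for the dog. With the dog as a block, 0 of the 12 members were called and 0 had an unadjusted p under 0.05, beside 1 gene called and 3.89% of genes with such a p (edgeR). Single dogs differed in direction and size. CYP4A37 was 53.3-fold higher in the metastasis of dog 4 than in its primary tumor, and in dog 1 it was 1.26-fold lower. CYP1B1 was 7.57-fold lower in the metastasis of dog 4 and 3.60-fold lower in that of dog 2, 1.44-fold higher in dog 3, and at 32.9 and 28.9 CPM in dog 1.

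CYP4A11 had no common direction, with 61.5 against 47.4 CPM in dog 1, 1815 against 847 CPM in dog 2, 49.2 against 126 CPM in dog 3 and 188 against 756 CPM in dog 4 (log2FC of metastasis relative to primary −0.23, SE 1.25, adjusted p = 1, edgeR). Without AGASAC 2 its log2FC was 2.17, and with the dog as a block 0.47. CYP4B1 had a log2FC of −1.23 (SE 0.76), and −0.66 (SE 0.52) with the dog as a block. Its level was higher in the metastases of 2 dogs and lower in those of the other 2. CYP27A1 was higher in the metastasis in 4 of 4 dogs (log2FC 0.67, SE 0.40) and CYP2U1 lower in 4 of 4 (log2FC −0.22, SE 0.25), both with an adjusted p of 1 (edgeR). With the dog as a block the log2FC was 0.74 (SE 0.36) for CYP27A1 and −0.23 (SE 0.16) for CYP2U1, again with an adjusted p of 1 (edgeR). The other 8 tested members had a log2FC between −0.87 (CYP1B1) and 0.65 (CYP4A37). These values hung on single samples and on the fit. That of CYP4A37 was 2.28 with the dog as a block, 6.22 without AGASAC 1 and 0.04 without metastasis 4. That of CYP1B1 was −1.12 (SE 0.57) with the dog as a block, −2.39 without metastasis 3 and −0.45 without metastasis 1. Lymphocyte genes summed to 62.0 to 80.1 CPM in the metastases and 30.2 to 60.9 CPM in the 4 primary tumors, and skeletal muscle genes to 2.12 to 4.22 CPM and 16.0 to 411 CPM. Their part in these values was not tested.

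**Figure D4:**
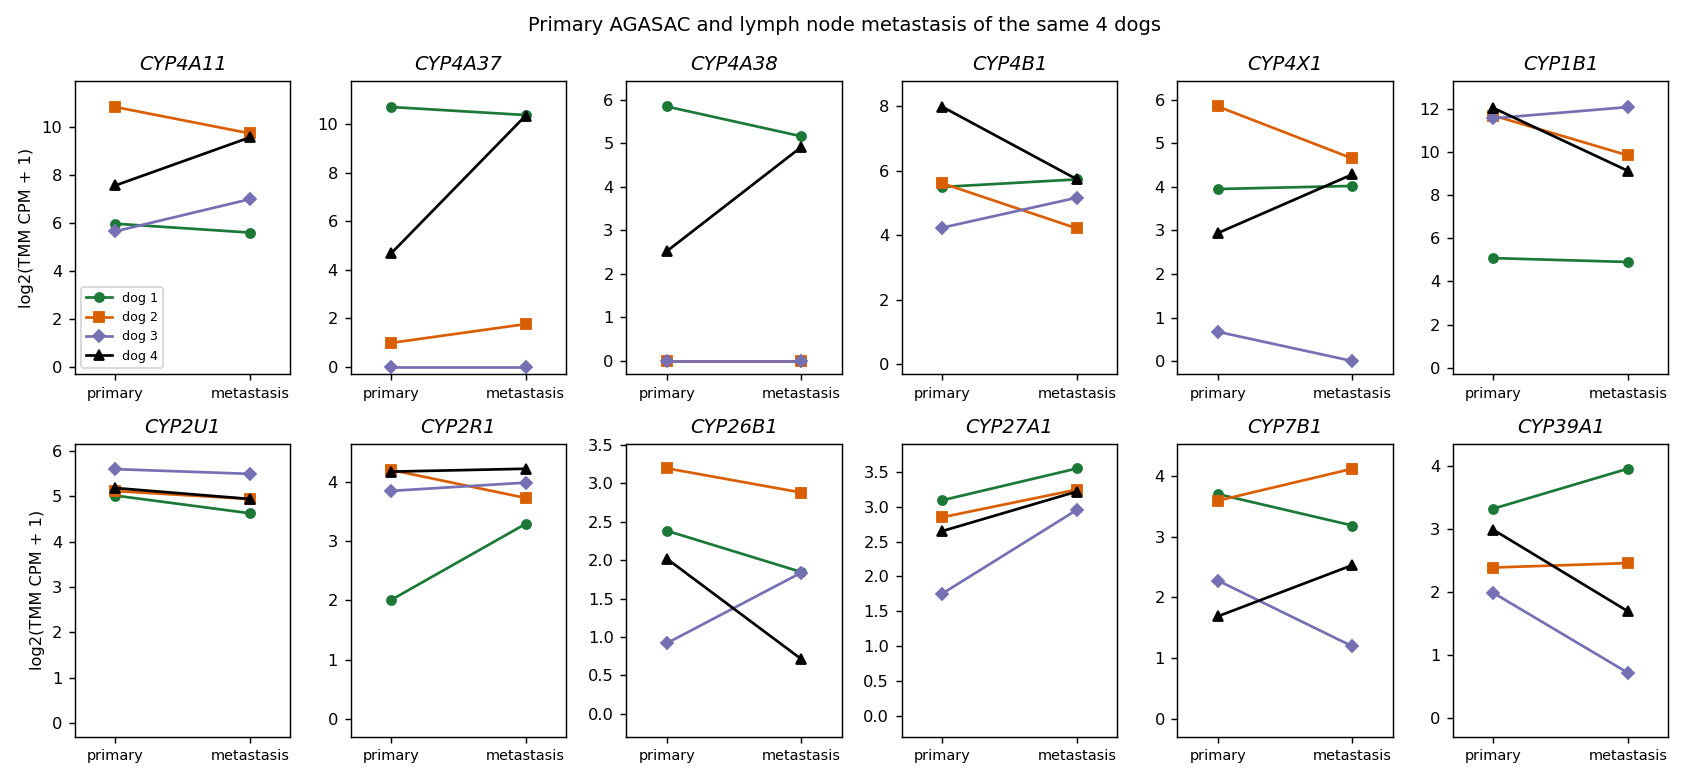
Level of the 12 tested P450 genes as log2(TMM CPM + 1) in the primary AGASAC and the lymph node metastasis of the same dog, with a line per dog (n = 4). The lines of CYP4A37 and CYP1B1 of dog 1 stay flat, at a high and a low level respectively, whereas CYP4A37 of dog 4 climbs from 24.5 to 1304 CPM.

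The HGA versus the metastases is a comparison that shares its 10 HGA with that of the primary tumors, so its values stand side by side with those and are no independent result. Of 10 members tested, 2 were called, CYP4A11 (log2FC −12.47, SE 0.79, adjusted p = 1.52e-07) and CYP4B1 (−5.40, SE 0.89, adjusted p = 0.00220, both edgeR), beside 16.1% of the 13195 genes tested and 7.69% called lower in HGA. In both the groups did not overlap, beside 8.72% of tested genes that were lower in HGA without overlap. CYP4X1 was at least 141-fold higher in the metastases over the group's limit, although metastasis 3 had 0 counts. CYP26B1 had a log2FC of 2.15 (SE 0.56, adjusted p = 0.0735, edgeR) and was not called, and DESeq2 did call it (2.11, adjusted p = 0.00547). Without metastasis 2, which had the highest CYP26B1 of its group with 6.37 CPM, 4 members were called, CYP26B1 and CYP4A37 being added. Without metastasis 3, which had no CYP4A37 and no CYP4X1, 4 were called as well, these 2 genes being added. CYP46A1, which was tested here alone, had a log2FC of 0.59 (SE 0.67, adjusted p = 1, edgeR).

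**Figure D5:**
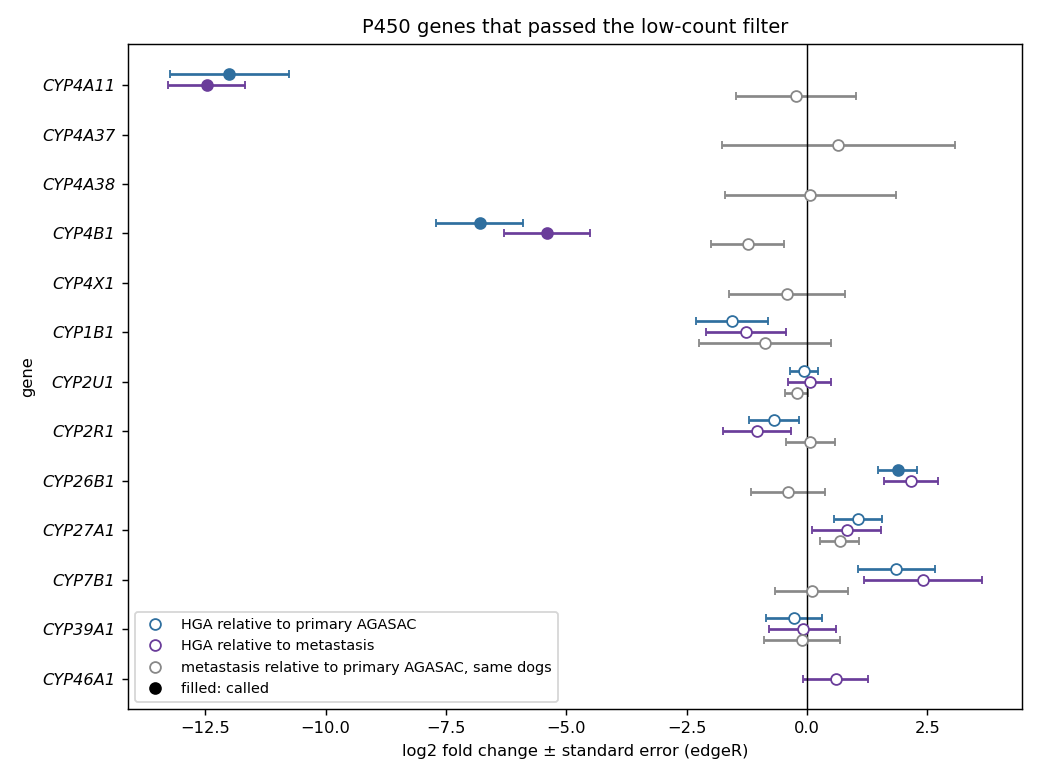
Log2FC with its standard error (horizontal bars, edgeR) for the P450 genes that passed the low-count filter, in HGA relative to primary AGASAC, HGA relative to metastases, and metastases relative to the primary tumors of the same dogs, with filled points for called genes. CYP4A11 and CYP4B1 lie far to the left in both HGA comparisons, CYP26B1 lies to the right and is filled in the first of them, and the metastasis comparison has no filled point.

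The proteins that P450 enzymes work with were described from 6 lists of genes, in HGA versus primary AGASAC. The list of redox partners also held the P450-binding proteins PGRMC1 and PGRMC2. Of its 10 genes, 9 were found and tested, 2 rose (PGRMC1 and PGRMC2), 1 fell and 6 were not called. These counts stand beside 12.6% of all tested genes called higher and 12.5% called lower. The counts of the other lists are to be read against the same shares. POR, the reductase that feeds electrons to the microsomal P450s, had 111 ± 42.2 CPM in HGA and 92.8 ± 20.5 CPM in primary AGASAC (log2FC 0.29, SE 0.22, adjusted p = 1, edgeR). CYB5A, cytochrome b5, fell in HGA (41.4 ± 14.6 against 151 ± 69.2 CPM, log2FC −1.84). The heme-binding membrane proteins PGRMC1 and PGRMC2, which bind to P450s, rose with a log2FC of 3.38 and 1.81. PGRMC1 had 97.2 to 994 CPM in HGA and 33.8 to 85.0 CPM in primary AGASAC.

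Of 13 genes of heme synthesis and breakdown, 12 were tested, HMOX1 and UROD rose, and 10 were not called, beside 25.1% of all tested genes called. HMOX1, which degrades heme, had a log2FC of 3.97, and its level in HGA reached from 12.5 to 1232 CPM around a median of 147 CPM, against 4.86 to 24.5 CPM in primary AGASAC. UROD, of the synthesis pathway, had a log2FC of 1.18. Some genes that were not called had an adjusted p under 0.05 with a log2FC under 1 in size. These were CPOX (0.95, adjusted p = 0.000182), HMOX2 (0.97, adjusted p = 0.00846) and ALAS1 (−0.69, adjusted p = 0.0318, all edgeR). ALAS1 was thus lower in HGA, the opposite direction to UROD. Of the receptors and factors that regulate P450 genes, 17 of 19 were found and 9 tested. PPARA (log2FC 2.30), NR1H3 (1.27, adjusted p = 0.04995, edgeR) and RXRA (1.17) rose, RXRB fell (−1.23), and 5 were not called. PPARA is the fatty acid receptor that induces CYP4A genes in rodent liver. It had 33.7 to 132 CPM in HGA and 2.43 to 26.8 CPM in primary AGASAC. CYP4A11 was at 0 in 9 of the 10 HGA.

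Of the enzymes that conjugate or hydrolyse P450 products, 10 of the 17 found were tested. EPHX2, the soluble epoxide hydrolase that converts epoxides of arachidonic acid, rose (log2FC 2.14), as did the sulfotransferase SULT1C4 (3.27). UGT8, which makes galactosylceramide, fell (−5.00). Of those that the filter removed, UGT2B31 had 0 counts in HGA and 0.65 to 439 CPM in primary AGASAC. From the summed counts it was at least 768-fold higher there, with 3 counts over the HGA as the limit. Of its 2903 counts in primary AGASAC, 1344 lay in AGASAC 10, and the 0.65 CPM was that of AGASAC 2. SULT1D1 had 0 counts in HGA and 415 in primary AGASAC, of which 254 lay in AGASAC 4. UGT1A6 had 3 and 313, of which 226 lay in AGASAC 10. In the other direction, SULT1B1 had 187 and 26 counts, of which 106 lay in HGA 7 and all 26 in AGASAC 11. SULT1C2 had 14 and 0 counts, and 5 in the metastases. Of the partners in steroid synthesis, 5 of 9 found were tested. HSD3B2, the 3β-hydroxysteroid dehydrogenase, had 18.5 to 275 CPM in HGA and 0 counts in all primary tumors and metastases, which made it at least 1179-fold higher in HGA than in the primary tumors. SRD5A1, the steroid 5α-reductase, rose (log2FC 4.68), and HSD11B2, which inactivates cortisol, fell (−2.18). The adjusted p of the called genes of these lists was at most 0.04995 (edgeR). Of the P450 enzymes with other symbols, PTGIS was tested and not called (log2FC −0.34), and TBXAS1 was not tested. In the 4 pairs of metastases and primary tumors 0 genes of the 6 lists were called, and UGT8 was the one with an unadjusted p under 0.05.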

How the data were processed

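RNA of 25 canine FFPE tumor samples (10 HGA, 11 primary AGASAC, 4 metastases, grouped by their titles) was sequenced as QuantSeq 3′ libraries. The authors trimmed the reads with Cutadapt, aligned them with STAR to CanFam3.1 and counted them with featureCounts, in a second round on an annotation extended by 2 kb at the 3′ end, with multi-mapped reads split evenly, and deposited whole counts per gene. These counts were the values used here. The same table holds the authors' size-factor-normalized counts and their mean as a signal, and the deposited log2 fold change, its standard error and p-value of the authors' own comparison, none of which was used. All count columns were used (0 left out).

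Counts were tested over the whole table in R 4.3.3 with edgeR 4.0.16 (quasi-likelihood test, filterByExpr with a minimum count of 10 and a minimum total of 15, TMM, no covariate, Benjamini-Yekutieli adjustment). The standard error is the absolute log2FC divided by the root of F. Levels are CPM with TMM factors over the 25 samples, and the floor is 3 counts. Intervals of a share or a count ratio are exact binomial, at 95%. Alternatives were DESeq2 1.42.0, other scaling, filter, adjustment, samples, covariates and batches, and leaving out each sample. The code was tested on simulated counts. Metastases and primary tumors of the same number come from the same dog by the labels, and deviated together across 12173 genes (correlations 0.450 to 0.743), whereas equal numbers of HGA and primary AGASAC name different dogs (−0.046 to 0.034). No pair of samples of a group was a duplicate (chi-square per degree of freedom at least 12.2). Every sample is a different tumor, but the metastases share their dogs with primary tumors. The named members are those that passed the filter in at least 1 comparison, with the highest count given for the rest. Further values of CYP1A1, CYP2J2, CYP2S1 and CYP4F22 were added after their values were seen. Of the partner lists the called genes, at most 6 per list, are named, and POR, CYB5A, AHR, NR1I2 and PPARA. ALAS1, CPOX, HMOX2, UGT2B31, UGT1A6, SULT1B1, SULT1C2 and SULT1D1 were added after their values were seen. Members and lists were chosen with earlier results of these data known. Of the 27 members, 26 were found by symbol in the RefSeq table (CYP2R1 was not), which was used for neighbouring genes only, since it is of another assembly. RNA extraction batches and file naming series were taken from the study's supplement. RNA quality (DV200) was 70.2% to 92.7%.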

Additional observations from a re-analysis of the deposited data

Results flagged for a closer look

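Among the 13 members that were tested in at least 1 comparison, the highest and the lowest sample of the HGA and of the metastases were set against the rest of the group, in 25 groups of values, and 7 values from 4 samples lay apart, each the highest of the HGA. The nominal rate is about 1 in 20 groups, for values without the skew and the zeros of low counts. The values of CYP4A11 and CYP4A38 in HGA 10 rest on 1 and 4 counts. The 11 primary tumors were too many for this rule.

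HGA 10 had the highest CYP4A11 (0.43 CPM, 1 count, with 0 in the other 9), CYP4A37 (6.88 CPM, with 0.57 CPM next) and CYP4A38 (1.72 CPM, with 0.57 CPM next). Its luminal gland genes summed to 509 CPM, within the 411 to 740 CPM of HGA. Without HGA 10 the log2FC of CYP4A11 was −12.93 (adjusted p = 0.000199, edgeR). HGA 2 had the highest CYP4B1 (5.42 CPM, with 2.28 CPM next) and CYP2R1 (29.4 CPM, with 7.60 CPM next), and without it the log2FC was −7.89 for CYP4B1 (adjusted p = 6.70e-06, edgeR) and −1.40 for CYP2R1 (adjusted p = 0.149, edgeR). HGA 5 had the highest CYP26B1 (30.2 CPM), and without it the log2FC was 1.68 (adjusted p = 0.0164, edgeR). HGA 6 had the highest CYP2U1 (93.9 CPM, with 47.6 CPM next), and without it the log2FC was −0.39 (adjusted p = 1, edgeR).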

How the results depend on the processing

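For HGA versus primary AGASAC, 3 members were called (1 higher, 2 lower) with RLE, library size alone, Benjamini-Hochberg adjustment, DV200 or the extraction batch as a covariate, and without any 1 tumor (range 3 to 3, with 1 higher and 2 lower). More were called without the filter (7, of which 6 lower), with DESeq2 and with all 25 samples in one fit (each 7, of which 2 higher and 5 lower), where genes below the filter are tested. Fewer were called within extraction batches 5 and 8 (0, with 0 higher and 0 lower) and within the naming series of most HGA (2, with 0 higher). Within batch 6, 3 were called (0 higher, 3 lower), with CYP4A37 in place of CYP26B1. Fewer tumors were fitted in each of these subsets. The genes called over the whole table fell from 3032 to 262, 637 and 338 within batches 5, 6 and 8. For the metastases and primary tumors of the same dogs, 0 members were called in each setting, and 1 gene with the replicate block of the dog and 5 genes with DESeq2 in place of 0.

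For HGA versus metastases, the 2 calls became 5 (5 lower) without the filter and with all 25 samples in one fit. In the same comparison 1 member was called higher with DESeq2 and with Benjamini-Hochberg adjustment (CYP26B1 in both). The latter adjustment called 3536 genes in place of 2124, and leaving out 1 sample gave 2 to 4 calls (0 to 1 higher, 2 to 4 lower). With the replicate number as a block, 1 was called (1 lower, 762 genes), but these numbers do not pair the dogs, and the cause was not tested. The replicate block changed no other call of a member. Scaling by library size alone put 36.3% of the calls higher in HGA in place of 52.2%, with a median of −0.26 over all genes. Members with under 10 counts in every sample lie near the limit of 3 counts and were called in no setting. A difference in them could have been missed at this depth. CYP2J2 and CYP2S1, which had more counts in some samples, were called in some fits.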

Other observations

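The table also lists genes by LOC number, and 4 of these rows are paired with a P450 symbol in the RefSeq table. They are no members by the rule and were looked at after the values of the members were known, with no test. The row paired with CYP8B1, the sterol 12α-hydroxylase of bile acid synthesis, had counts in 8 of 10 HGA, up to 11.2 CPM in HGA 7, and 124 counts in all, against 3 counts in 1 primary AGASAC and 0 in the metastases. The row paired with CYP4V2, a fatty acid hydroxylase of the eye and other tissues, had 3.87 CPM (HGA 10) to 122 CPM in HGA, 94.3 to 288 CPM in primary AGASAC and 104 to 160 CPM in the metastases. The row paired with CYP20A1, whose role is not well known, had medians of 31.7, 29.5 and 36.6 CPM in HGA, primary AGASAC and metastases, and that paired with CYP2F1 had at most 2 counts in a sample.

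In AGASAC 7, 4 of the 5 neighbouring CYP4 genes were at 0 (CYP4B1, CYP4X1, CYP4A37 and CYP4A38), and CYP4A11 was at its lowest with 4.54 CPM, while its luminal gland genes summed to 11366 CPM, the highest of the primary tumors.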
